A study of Mus musculus with 10 samples.

Results

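Immune cells were taken from single-cell transcriptomes of the embryonic mouse lower jaw by the RNA that they held: a cell belonged to them when at least 3 of the 9 genes *Tyrobp*, *Fcer1g*, *C1qb*, *Cx3cr1*, *Pf4*, *Cd52*, *Lst1*, *Ctss* and *Laptm5* had at least 1 UMI (unique molecular identifier, the tag that counts 1 captured mRNA molecule) and fewer than 3 of the 5 epithelial genes *Epcam*, *Krt5*, *Krt14*, *Dsp* and *Dsc3* did. By this rule 219 of 17175 cells were immune cells, namely 62 of the 6573 taken at embryonic day E11.5, 128 of the 6091 of E14.5 and 29 of the 4511 of E16.5. Only barcodes with at least 700 detected genes and at most 20% of their UMIs from mitochondrial genes were counted as cells. The 9 genes and the limit on epithelial genes chose the cells, so their values are a description and support nothing further.

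The embryos were wild-type NMRI mice. Entire mandibles were dissected at E11.5, when incisor formation starts, and buds of the lower incisor on E14.5 and on E16.5, and each piece was dissociated with Collagenase P and run on droplet 3' single-cell RNA sequencing. The labels list 4, 4 and 2 samples for the 3 stages, but the counts come as 1 matrix for each stage in which the cells cannot be assigned to a sample, so each stage was treated as 1 sample. Stage, dissected tissue and sample cannot be told apart here, no test between stages was possible, and every interval given is a 95% interval that covers counting error only.

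The white blood cells in the tissues of an embryo at these ages are mostly macrophages. They arise from the yolk sac and later from monocytes of the fetal liver, need the receptor *Csf1r* to survive, and clear dying cells and debris. Where bone forms around a tooth germ, cells of the same lineage respond to the ligand Rankl (gene *Tnfsf11*) through its receptor Rank (*Tnfrsf11a*), switch on the transcription factor *Nfatc1*, fuse and become osteoclasts, which dissolve bone mineral with acid and digest its collagen with secreted proteases.

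Immune cells made up 0.943% of the cells of E11.5 (exact binomial interval 0.724 to 1.21), 2.1% of those of E14.5 (1.76 to 2.49) and 0.643% of those of E16.5 (0.431 to 0.922). The share was highest at E14.5, and the intervals of E11.5 and E16.5 overlapped. The dissection differed between E11.5 and the later stages, which can set such shares. Median UMIs in an immune cell were 8458, 6810 and 10058 from the earliest to the latest stage, against 5638, 3436 and 6235.5 in the other cells. In total the immune cells held 659704, 934493 and 343020 UMIs. The 29 cells of E16.5 therefore give the least precise values, and there 1 cell held over 25% of the counts of several genes described here, among them *C1qa*, *C1qb*, *C1qc*, *Apoe*, *Ctsk*, *Acp5*, *Mmp9*, *Runx1*, *Ccl3*, *Ccl4* and *Tnf*.

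**Figure D1:**
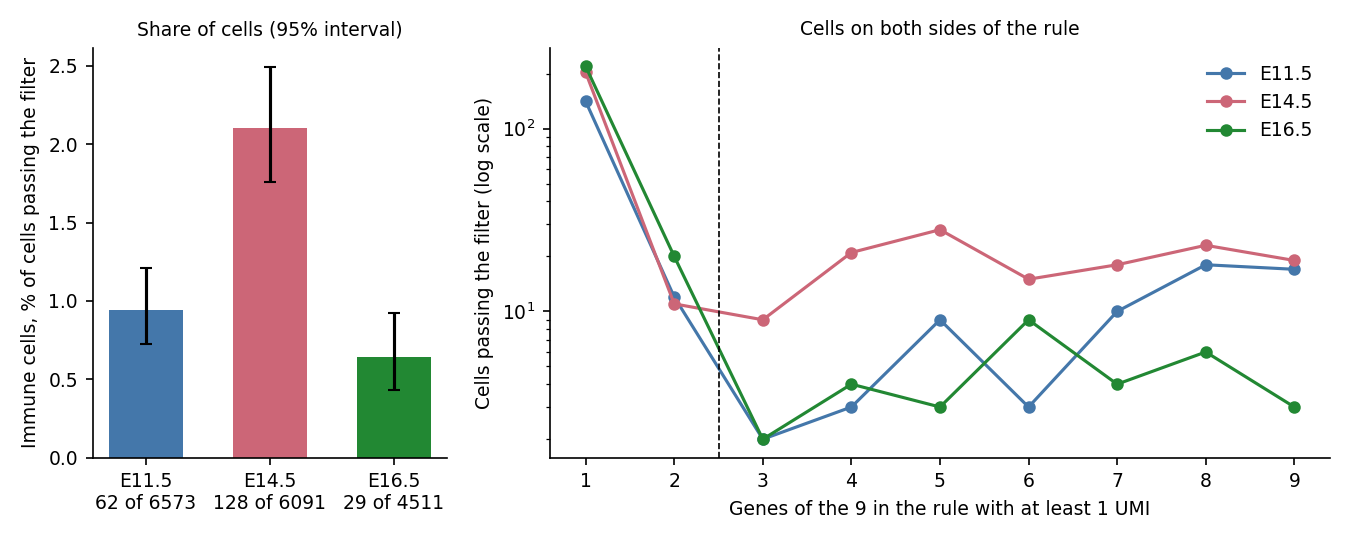
Left, immune cells as a percentage of all cells that passed the filter, with exact binomial 95% intervals as bars. Right, the number of cells (log scale) by how many of the 9 rule genes had a UMI, with the threshold of the rule as a dashed line; cells to its right include the 0, 5 and 2 cells left out for epithelial genes. The E14.5 share stands above both others, and at E16.5 the 20 cells just left of the line compare with 29 immune cells.

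The number of cells next to the threshold was small beside the immune cells at E11.5 and E14.5 but not at E16.5. Exactly 2 of the 9 genes were found in 12 cells of E11.5, 11 of E14.5 and 20 of E16.5, just outside, and exactly 3 in 2, 8 and 2 immune cells, just inside. Cells just outside mostly held *Fcer1g*, *Laptm5*, *Pf4* or *Lst1*, and *Csf1r* had a UMI in 1, 1 and 0 of them. At least 5 of the 9 genes were found in 57, 100 and 24 immune cells. With at least 2 genes in place of 3 the E16.5 share would be 1.04%. The epithelial limit left out 0, 5 and 2 cells that held at least 3 of the 9 genes.

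Some immune cells carried RNA of another kind. The immune cell with the most UMIs at E11.5 (75780 UMIs, 11.49% of all immune cell UMIs of that stage) had no UMI of *Csf1r* or *Spi1* but held 100% of the immune cells' counts of the endothelial gene *Cdh5* and 96.9% of those of *Kdr*. The largest at E16.5 (27973 UMIs, 8.15%) was also without *Csf1r* and *Spi1* and held 65.5% of the counts of *Cdh5* and 83.3% of those of *Kdr*. Endothelial genes summed to 387, 62.1 and 615 CPM (counts per 1000000 UMIs) in the immune cells against 69.9, 144 and 141 in the other cells. The most abundant of them in immune cells were *Kdr* at E11.5 (97 CPM) and *Egfl7* at E14.5 and E16.5 (21.4 and 134 CPM), and at least 3 were present in 2 immune cells at each stage. At E11.5 the cell of 75780 UMIs held 91.4% of the endothelial counts, and without it the sum was 37.7 CPM, below the other cells. At E16.5 3 cells held 96.7%, and without them the sum was 25.2 CPM, also below the other cells. Mesenchyme genes summed to 485, 258 and 449 CPM against 2125, 2876 and 2614, and the 5 listed epithelial genes that the rule did not use to 0, 12.8 and 5.83 against 6.25, 161 and 439. At least 3 mesenchyme genes were present in 14, 13 and 4 immune cells (22.6%, 10.2% and 13.8%), and in 82%, 78.3% and 62.3% of the other cells. Erythroid genes, led by the globin genes *Hbb-y* at E11.5 and *Hbb-bs* later, summed to 1968, 4850 and 294 CPM in the immune cells and 8377, 13816 and 7089 in the others. At E11.5 the cell of 75780 UMIs held 58.4% of these counts, and at E14.5 2 cells held 83.1%, with a median over the immune cells of 1006, 602 and 301 CPM. The doublet caller Scrublet placed 6.45%, 12.5% and 6.9% of the immune cells among the 5% of cells with the highest score of their stage; no cell was removed for it. The part of mixed droplets in the results was not tested beyond the alternatives given at the end.

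The genes of the rule were rarely seen in other cells. *Tyrobp*, the adaptor through which many activating receptors of myeloid cells signal, was found in 96.8%, 96.9% and 93.1% of the immune cells and in 0.0922%, 0.335% and 0.156% of the other cells. Its summed level was 735, 1159 and 1697 CPM. *Fcer1g*, a second adaptor with the same kind of signalling motif, stood at 725, 888 and 880 CPM. *C1qb*, a chain of complement C1q, was lower at each later stage, at 558, 465 and 306 CPM. *Cx3cr1*, the fractalkine receptor, had the same order, at 444, 211 and 122 CPM, and the share of immune cells with a UMI of it was 79%, 41.4% and 34.5%. The other genes of the rule except *Pf4* differed by less than 2 times between stages: *Cd52* lay between 502 and 805 CPM, *Lst1* between 387 and 455, *Ctss* between 329 and 347 and *Laptm5* between 300 and 446. *Pf4*, a chemokine of platelets and some macrophages, is a poor guide at E11.5, where 1 cell with megakaryocyte genes gave 72.6% of its counts.

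Promoters were searched for a GA-rich motif of the kind bound by *Spi1* (PU.1), the transcription factor that myeloid cells need, because it was present in most of the immune cells. The letters GAGGAAG, or CTTCCTC on the opposite strand, occurred within the 200 bases before the start in 8.84% of 32851 RefSeq promoters (assembly GRCm38.p6), in 2 of the 6 promoters matched to rule genes, in 3 of 12 for macrophage genes and in 1 of 9 for osteoclast genes, beside 1 of 8 for mesenchyme genes. Windows of macrophage and mesenchyme genes are not shown. The lines show the 2 windows of rule genes and the 1 of an osteoclast gene, each on the plus strand, with the motif in capitals. It begins 39 bases before the start in *Laptm5*, which encodes a lysosomal membrane protein of blood cells, 9 before it in *Pf4* and 59 before it in *Ctsk*, the collagen protease of osteoclasts. A match of letters is a description and not a binding site.
*Laptm5* (chr4:130913116-130913315): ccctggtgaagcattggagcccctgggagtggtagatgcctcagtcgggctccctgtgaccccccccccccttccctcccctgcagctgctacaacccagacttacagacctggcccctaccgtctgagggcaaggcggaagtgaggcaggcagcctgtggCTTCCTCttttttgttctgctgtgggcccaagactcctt
*Pf4* (chr5:90772235-90772434): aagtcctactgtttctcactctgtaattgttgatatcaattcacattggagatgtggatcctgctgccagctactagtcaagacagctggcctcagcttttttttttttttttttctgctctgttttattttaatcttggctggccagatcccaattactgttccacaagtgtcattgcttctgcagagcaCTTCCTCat
*Ctsk* (chr3:95499010-95499209): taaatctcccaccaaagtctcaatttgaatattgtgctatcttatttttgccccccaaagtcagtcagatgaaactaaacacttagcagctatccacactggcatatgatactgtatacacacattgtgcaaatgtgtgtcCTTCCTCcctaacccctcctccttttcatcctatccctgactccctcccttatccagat

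The immune cells of all 3 stages carried the genes by which macrophages are known at far higher levels than the other cells. The 15 genes of the macrophage list, which the rule did not use, summed to 2462, 2457 and 3218 CPM in the immune cells and to 41.8, 73.2 and 87 in the rest. The highest sum, at E16.5, rested on few cells: 3 of them held 41.6% of the counts, the sum without them was 2002 CPM, and the median over the immune cells was 3537, 1809 and 1454. At least 3 of them had a UMI in 51 (82.3%), 103 (80.5%) and 22 (75.9%) immune cells, and in 3, 10 and 24 other cells (0.0461%, 0.168% and 0.535%). Ratios between groups were taken as log2 after adding 10 CPM on each side, and a gene counted as different when the ratio passed 1 in size, a change of 2 times. Genes were ranked when seen in at least 10% of the cells of either group and with at least 50 counts over both. At E11.5, 11 of the 12 ranked macrophage genes were higher in immune cells; of all ranked genes 8.55% were (665 of 7779). At E14.5 it was 9 of 9 against 10.0% of all (627 of 6241), and at E16.5 9 of 9 against 7.16% (620 of 8663). Of those macrophage genes 10, 8 and 8 reached the 10% of cells in the immune cells alone, which fixes their direction, so the counts are a description. The medians over all ranked genes were -0.09, -0.06 and -0.21.

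*Csf1r*, the receptor for the growth factors *Csf1* and *Il34*, was found in 62.9%, 63.3% and 58.6% of the immune cells and in 0.0307%, 0.117% and 0.0669% of the others. Its level was 208 CPM (174 to 245), 170 (145 to 199) and 134 (98.2 to 179), with neighbouring intervals overlapping. *Spi1* stood at 162, 319 and 230 CPM and was found in 74.2%, 77.3% and 72.4% of the immune cells. *C1qa* and *C1qc*, the other chains of C1q, lie beside *C1qb* on chromosome 4 (GRCm38, *C1qc* from 136889804 to 136893065, *C1qa* from 136895917 to 136898803). *C1qa* read 279, 284 and 233 CPM, but 1 cell held 41.2% of its E16.5 counts, and without that cell the E16.5 level was 141. *C1qc* read 367, 296 and 143 CPM. The lysosomal glycoprotein gene *Cd68* was at 80.3, 223 and 224 CPM. It was the 1 of 13 ranked macrophage genes that was at least 2 times higher at E14.5 than at E11.5, where 4.53% of all ranked genes were (175 of 3866). *Adgre1*, which encodes the F4/80 antigen, was at 66.7, 37.5 and 32.1 CPM and *Ptprc*, the CD45 phosphatase of all white blood cells, at 191, 126 and 192. The pore-forming protein gene *Mpeg1*, at 81.9, 46 and 52.5 CPM, had no UMI at all in the other cells of E11.5, where the immune cells held at least 1278-fold more.

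Outside the rule, *Lyz2*, *Spi1*, *Rac2*, *Arhgdib*, *Apoe*, *C1qa* and *C1qc* were among the 10 genes that stood highest over the other cells at more than 1 stage. At E11.5 the 10 were *Apoe*, the lipid carrier (log2 5.55, 5.45 to 5.65), the lysosomal protease *Ctsc* (5.37), *C1qc* (5.22), the lysozyme gene *Lyz2* (5.13), *Plac8* (5.12), the mannose receptor *Mrc1* (4.92), the transcription factor *Maf* (4.85), *C1qa* (4.85), and *Arhgdib* and *Rac2*, regulators of the actin skeleton (4.84 and 4.74). At E14.5 the chemokine *Ccl4* led (5.99), followed by the osteoclast acid phosphatase *Acp5* (5.70), *Apoe* (5.65), *Ctsk* (5.15), *Lyz2* (5.01), the chemokine *Ccl3* (4.99), *Spi1* (4.94), *C1qc* (4.92), *C1qa* (4.85) and *Jdp2* (4.83), a transcription factor known from osteoclast formation. At E16.5 they were *Lyz2* (7.08), *S100a4* (5.39), *Fxyd5* (5.17), *Rac2* (5.04), the chemokine *Cxcl2* (4.93), the actin-bundling *Lcp1* (4.87), the lectin *Lgals3* (4.76), *Clec4a2* (4.73), *Arhgdib* (4.56) and *Spi1* (4.54). Genes of which a single immune cell held over 25% of the counts were left out of this ranking. Among the genes left out were *Ccl4* at E11.5, *Cxcl2* and *F13a1* at E14.5 and *Acp5* and *Ctsk* at E16.5, so that absence from the 10 does not mean a low ratio. *Apoe* itself read 1896, 1588 and 1187 CPM in immune cells and 30.8, 21.9 and 34.7 in the others.

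**Figure D2:**
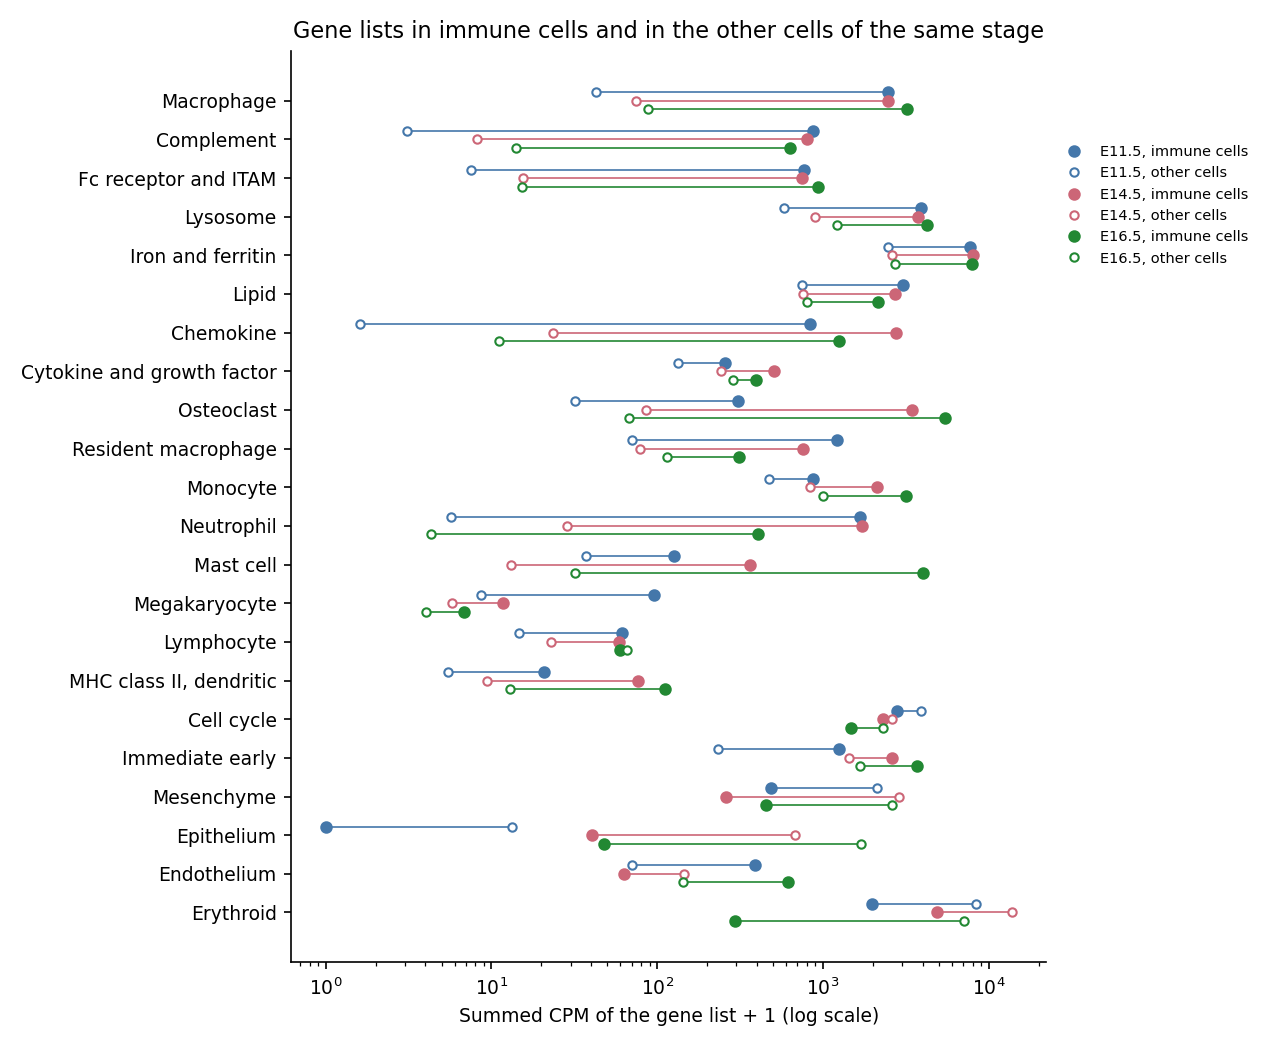
Summed CPM (plus 1, log scale) of each gene list in the immune cells (filled circles) and in the other cells of the same stage (open circles), joined by a line, for the 3 stages. Macrophage, complement, Fc receptor and chemokine genes lie far to the right in immune cells, and cell cycle genes lie close together on both sides. Endothelial RNA is above the other cells at E11.5, where 1 immune cell holds 91.4% of it, and at E16.5, where 3 hold 96.7%.

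Receptors that pair with the adaptors *Tyrobp* and *Fcer1g* were also present. All ranked members of that list, 6 of 6, 7 of 7 and 4 of 4, were higher in the immune cells, against 8.55%, 10.0% and 7.16% of all ranked genes, and all of them reached 10% of the cells in the immune cells alone, which fixes their direction. The list summed to 764, 742 and 927 CPM against 6.49, 14.6 and 14.2 in the others. *Clec4a2* read 62.1, 167 and 259 CPM, higher at each later stage, whereas the Fc receptor gene *Fcgr1* read 78.8, 36.4 and 11.7, lower at each. *Trem2*, which senses lipids and debris, was at 108, 82.4 and 75.8 CPM. The complement list (without *C1qb*) summed to 873, 803 and 630 CPM against 2.09, 7.19 and 13 in the other cells. At E16.5 3 cells held 55.1% of these counts, and without them the sum was 305 CPM. The median over the immune cells was 1003, 300 and 257 CPM. Within the complement list *Cfp*, which stabilises complement activation, read 10.6, 50.3 and 99.1 CPM, and the anaphylatoxin receptor *C3ar1* was at 89.4, 81.3 and 43.7.

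The summed level of lysosome genes was much alike at the 3 stages. They summed to 3870, 3747 and 4218 CPM in immune cells against 580, 892 and 1218 in the others. The median over the immune cells varied more, at 5192, 3122 and 4114 CPM. In the immune cells 16, 14 and 14 of 18 ranked genes were higher, against 8.55%, 10.0% and 7.16% of all ranked genes. Of the 18 genes 6, 9 and 4 reached 10% of the cells in the immune cells alone. At E14.5, 2 of 17 ranked genes were at least 2 times higher than at E11.5 (*Cd68* and *Npc2*, the latter 1.10), and 2 lower, *Ctsc* (-1.28) and *Ctsl* (-1.18), beside 4.53% and 7.29% of all ranked genes. *Ctsb*, a lysosomal protease, read 665, 555 and 402 CPM, while *Npc2*, which moves cholesterol out of lysosomes, read 274, 600 and 866. *Ctsl*, by contrast, was 1.54 on the log2 scale above the other cells at E11.5 and -0.09 and -0.74 at the later stages. The ferritin genes *Ftl1* (3893, 4204 and 3886 CPM) and *Fth1* (3403, 3513 and 3688 CPM), which store iron, had nearly the same summed level throughout. For the list of 12 iron and heme genes that includes them, the median over the immune cells was lower at each later stage, at 9713, 6868 and 5918 CPM. At E16.5 1 cell held 18.6% of the *Fth1* counts.

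Of the 16 transcription factors listed for blood and myeloid cells, 9 of 12, 4 of 10 and 5 of 10 ranked ones were higher in the immune cells. Lower were 1, 3 and 1. Of all ranked genes 8.55%, 10.0% and 7.16% were higher and 8.11%, 13.9% and 16.54% lower. Since 9, 4 and 3 of the ranked factors reached 10% of the cells in the immune cells alone, which fixes their direction, the counts are a description. The decline for *Maf* came from both sides. In immune cells *Maf* was at 521, 234 and 108 CPM, and in the other cells at 8.41, 92.2 and 175, so that its log2 ratio went from 4.85 through 1.26 to -0.65. *Runx1*, a factor of blood formation that is also used in other tissues, followed the same course: 132, 70.6 and 58.3 CPM in immune cells, 2.52, 65.4 and 98.1 in the others, and ratios of 3.50, 0.10 and -0.66. Both genes thus stood above the other cells at E11.5 and below them at E16.5.

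Osteoclast genes were higher in the immune cells of both later stages. The 12 genes of that list summed to 306 CPM in the immune cells of E11.5, 3415 in those of E14.5 and 5402 in those of E16.5, against 31.1, 84 and 66.8 in the others. At E11.5 the creatine kinase gene *Ckb* alone gave 230 of the 306 CPM, whereas *Ctsk* was the most abundant gene at both later stages. At E16.5 3 cells held 71.3% of these counts, and without them the sum was 1753 CPM, while at E14.5 the leading 3 held 23.8%. The median over the immune cells was 281, 516 and 376 CPM. Between E11.5 and E14.5, 6 of the 8 ranked genes were at least 2 times higher, with a median log2 ratio of 3.74, though 4 of the 8 reached 10% of the cells at E14.5 alone, which fixes their direction; of all ranked genes 4.53% were higher (175 of 3866) and 7.29% lower (282 of 3866), with a median of -0.16. Between E14.5 and E16.5, 1 of 8 was higher (*Acp5*, 1.10, but 0.66 without the cell with the most of its UMIs at each stage) and 1 lower (*Nfatc1*, -1.11), with a median of 0.19, where 2.35% of all ranked genes were higher (71 of 3015) and 2.22% lower (67 of 3015), with a median of -0.05.

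*Ctsk* was at 3.03 CPM (0.367 to 11) at E11.5, where 2 cells held 1 UMI each, at 1254 (1183 to 1328) in 38 cells at E14.5, and at 1927 (1783 to 2080) in 7 cells at E16.5. The log2 ratio of E14.5 over E11.5 was 6.60 (5.91 to 6.94), and in the other cells 1.23. One cell gave 39.5% of its counts at E16.5. *Acp5*, the tartrate-resistant phosphatase used to stain osteoclasts, was at 10.6, 808 and 1743 CPM in 7, 52 and 12 cells, with a ratio from E11.5 to E14.5 of 5.31 (4.67 to 5.85) and of 0.01 in the other cells; 1 cell gave 36.6% of its counts at E16.5. The protease gene *Mmp9* had no UMI in any immune cell at E11.5 and read 330 and 641 CPM later, and *Atp6v0d2*, a subunit of the proton pump that acidifies the resorption pit, went from 0 to 241 and 172. Both absences rest on a total of 659704 UMIs, where 3 counts would be 4.55 CPM.

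Genes that act before resorption varied in how far they differed. The receptor gene *Tnfrsf11a* was present at all stages, at 31.8, 56.7 and 46.6 CPM, in 18, 36 and 11 immune cells. *Nfatc1* was at 22.7, 200 and 87.5 CPM in 10, 66 and 11 cells. Its log2 ratio was 2.68 from E11.5 to E14.5 and -1.11 from E14.5 to E16.5. *Jdp2* read 6.06, 529 and 318 CPM, with a ratio of 5.07 from E11.5 to E14.5. *Dcstamp* and *Ocstamp*, membrane proteins needed for fusion, were both at 0 on E11.5 and read 61 and 24.6 CPM on E14.5 and 37.9 and 23.3 on E16.5. *Calcr*, the calcitonin receptor of mature osteoclasts, had no UMI in immune cells of any stage.

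The ligand for this receptor was followed in the other cells. *Tnfsf11* had a UMI in 1 of 6511 other cells of E11.5 (0.0154%), in 126 of the 5963 of E14.5 (2.11%) and in 97 of the 4482 of E16.5 (2.16%), at 0.0213, 5.03 and 3.18 CPM. Most of those cells, 123 of 126 and 95 of 97, carried at least 3 mesenchyme genes, as did 78.3% and 62.3% of all other cells at those stages. The decoy receptor *Tnfrsf11b* was at 0.0854, 0.596 and 0.983 CPM. *Csf1* was at 2.6, 7.34 and 6.7 CPM in the other cells, while *Il34*, the other ligand of *Csf1r*, had 0, 1 and 0 UMIs there.

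**Figure D3:**
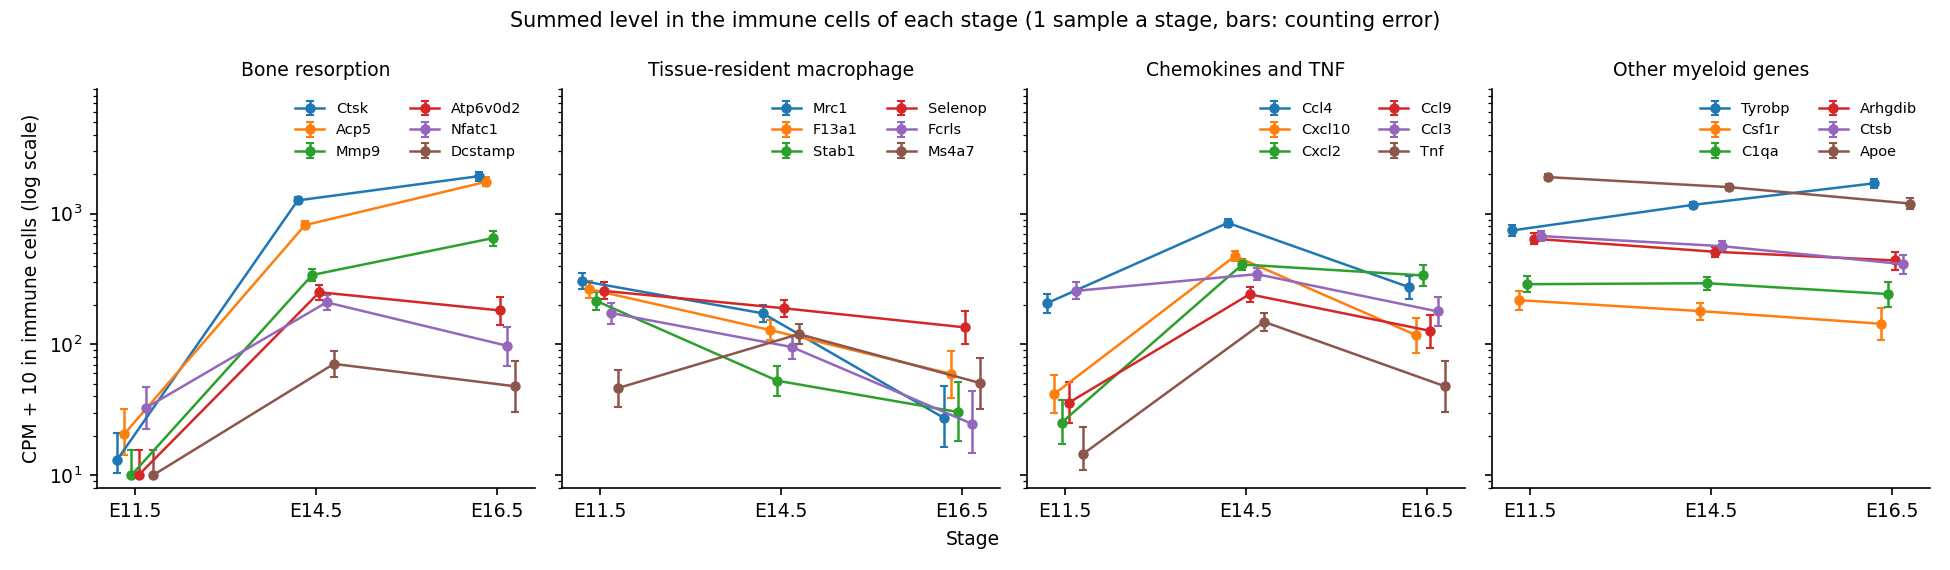
Level (CPM plus 10, log scale) of 24 genes in the immune cells at the 3 stages, in 4 panels, with bars for the 95% counting interval and 1 sample for each stage. Bone resorption genes lie near the floor at E11.5 and above it later, genes of the resident macrophage panel other than *Ms4a7* decline, chemokine genes peak at E14.5, and *Csf1r* differs by less than 2 times between neighbouring stages.

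Genes of tissue-resident fetal macrophages went the other way. The 14 genes of the list summed to 1210, 753 and 312 CPM, against 69.3, 78.1 and 114 in the other cells. At E14.5 3 cells held 39.1% of these counts and at E16.5 3 held 49.5%, without which the sums were 470 and 167 CPM; the median over the immune cells was 1190, 102 and 0. *Mrc1*, the mannose receptor, read 296 CPM (256 to 340), 163 (138 to 191) and 17.5 (6.42 to 38.1), in 33, 26 and 2 cells. Its log2 ratio was -0.82 from E11.5 to E14.5 and -2.65 (-3.43 to -1.81) from E14.5 to E16.5. *Stab1*, a scavenger receptor, was at 205, 42.8 and 20.4 CPM, and *F13a1*, a clotting factor subunit made by such macrophages, at 255, 119 and 49.6 CPM; 1 cell held 25.2% of the E14.5 and 47.1% of the E16.5 counts. *Selenop*, a selenium carrier, read 247, 179 and 125 CPM; 1 cell held 26.9% of the E14.5 and 30.2% of the E16.5 counts. *Fcrls*, which is on the list of genes shared with microglia, read 164, 85.6 and 14.6 CPM. Not all resident genes followed: *Ms4a7* peaked at E14.5 with 110 CPM between 36.4 and 40.8. Of the ranked genes 1 was higher and 3 of 7 lower at E14.5, with a median of -0.82, and 3 of 4 lower at E16.5, with a median of -1.18, where 4.53% of all ranked genes were higher and 7.29% lower at E14.5 and 2.22% lower at E16.5. Of the 7, 1 reached the share of cells needed for ranking at E11.5 alone, which fixes its direction. The same holds for 1 of the 4, which reached it at E14.5 alone. *Timd4*, a receptor of some resident macrophages, had no UMI in any immune cell, and *Lyve1* had 1, 67 and 0 counts, those of E14.5 in 4 cells.

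Both lists were then counted cell by cell. At least 3 osteoclast genes had a UMI in 7 immune cells of E11.5 (11.3%), 56 of E14.5 (43.8%) and 11 of E16.5 (37.9%), against 0.0614%, 0.352% and 0.937% of the other cells. The E11.5 share depends on the limit: with at least 2 genes, a limit chosen after seeing the data, it was 41.9% and that of E14.5 59.4%. At least 3 resident macrophage genes did in 39 (62.9%), 31 (24.2%) and 4 (13.8%). Of the 4 at E16.5, 2 also held at least 3 macrophage genes; the others were the cell of 27973 UMIs with endothelial genes, which held 1 macrophage gene, and a cell of 20507 UMIs, which held 0. After each cell was thinned to 2000 UMIs, which 62, 122 and 27 immune cells reached, the order of the stages was the same, with shares of 0%, 30.3% and 25.9% for osteoclast genes and 33.9%, 11.48% and 3.7% for resident genes. Both criteria were met by 6, 4 and 0 cells, which at E11.5 is 6 of the 7 with osteoclast genes. At E14.5, 52 cells met the osteoclast criterion alone, 27 the resident criterion alone and 45 neither.

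**Figure D4:**
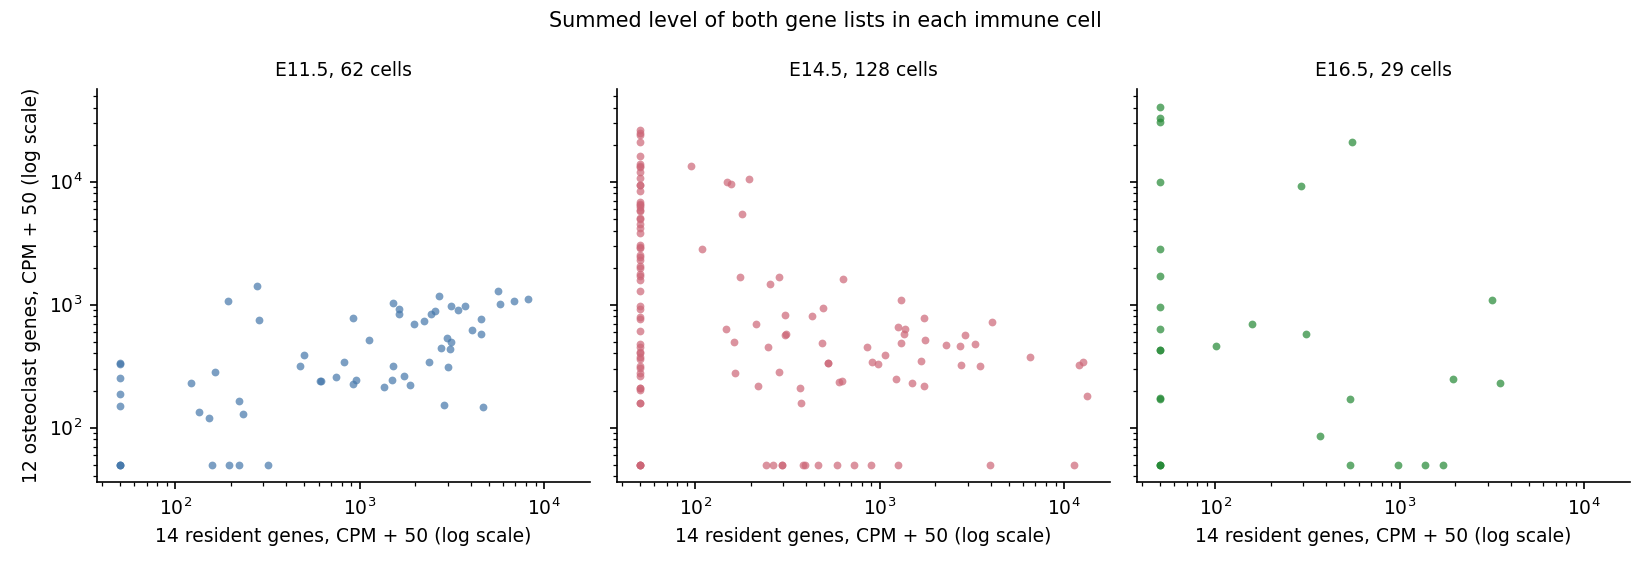
Each point is 1 immune cell, with the summed CPM plus 50 (log scale) of the 14 resident macrophage genes across and of the 12 osteoclast genes up, for 62, 128 and 29 cells. At E14.5 and E16.5 the cells with the most osteoclast RNA stand at the left edge, with little or no resident RNA, and no such cells are seen at E11.5.

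The E14.5 cells with at least 3 osteoclast genes were set beside the rest of that stage. These 56 cells (median 8533 UMIs) had *C1qa* at 38.9 CPM against 552 in the other 72 (median 5718 UMIs), *Cx3cr1* at 30.7 against 408 and *Mrc1* at 6.14 against 334. *Ctss*, a lysosomal protease encoded next to *Ctsk* on chromosome 3 (*Ctsk* from 95499256 to 95509362, *Ctss* from 95526786 to 95556403), was at 164 against 547 CPM, while *Ctsk*, which is on the osteoclast list and so was part of the grouping, was at 2398 against 0. *Csf1r* did not follow this division, at 172 and 168 CPM, nor did *Tyrobp*, at 1187 and 1128. *Spi1* was at 379 against 253. At E16.5 the 11 such cells had *C1qa* at 6.55 CPM and the other 18 at 415. *Cx3cr1*, *Ctss* and *Tyrobp* belong to the rule that chose the immune cells, and the cells were grouped by their own RNA, so all of these are descriptions without a test.

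Chemokine genes had their highest sum at E14.5. The 16 genes of the list summed to 831, 2772 and 1239 CPM in immune cells and to 0.619, 22.5 and 10.1 in the others. The median over the immune cells varied less, at 475, 763 and 578 CPM. The leading 3 cells held 30.5%, 25.4% and 34.6% of the counts, and without them the sums were 599, 2136 and 858 CPM. At least 3 of these genes had a UMI in 48.4%, 43.8% and 51.7% of the immune cells, the lowest share being that of E14.5. In the thinned cells these shares were 17.74%, 31.97% and 29.63%. At E14.5, 6 of 9 ranked genes were at least 2 times higher than at E11.5, with a median of 2.67 (4.53% of all ranked genes were). Of the 9, 3 reached 10% of the cells at E14.5 alone, which fixes their direction. At E16.5, 5 of 10 were lower and 1 higher than at E14.5, with a median of -1.29 (2.22% and 2.35% of all). Of the 10, 1 reached 10% of the cells at E14.5 alone, which fixes its direction. *Ccl4* was at 197, 841 and 265 CPM, in 18, 45 and 8 cells. *Cxcl10*, which interferon induces and which attracts T cells, read 31.8, 465 and 108 CPM, and *Cxcl2*, which attracts neutrophils, 15.2, 399 and 327 CPM; 1 cell held 26% of the E14.5 and 25% of the E16.5 counts. *Ccl3*, at 247, 335 and 169 CPM, and *Ccl4* lie with *Ccl6* and *Ccl9* in a cluster on chromosome 11 (GRCm38, 83572919 to 83664683). *Tnf*, the inflammatory cytokine, was at 4.55, 139 and 37.9 CPM, and *Traf1*, a signalling protein of its receptors, at 0, 170 and 37.9.

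Immediate early and stress genes, which dissociation of tissue can raise, had a higher sum in the immune cells at every stage and a higher sum at each later stage on both sides. They summed to 1244, 2587 and 3711 CPM in immune cells and to 233, 1431 and 1669 in the others. Of the ranked genes 9 of 10, 7 of 13 and 8 of 13 were higher in the immune cells, against 8.55%, 10.0% and 7.16% of all, and 8, 4 and 1 reached 10% of the cells there alone. *Fos* read 361, 645 and 912 CPM in immune cells. Their part in the chemokine values was not tested.

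Among the remaining genes that were higher at E14.5 than at E11.5 in the immune cells, *S100a4* went from 6.06 to 1059 CPM (log2 6.06, other cells 2.22), *S100a6* changed by 2.99 (other cells 3.20), and the interferon-induced *Ifi27l2a* by 3.19. *Pdgfb*, a growth factor for mesenchymal cells, was at 15.2, 127 and 61.2 CPM. The genes with the lowest ratio were *Gpc3* (-2.75, other cells -0.77), *Hmga2* (-2.67, other cells -1.30), *Nr2f2* (-2.61, other cells -2.15) and *Mdk* (-2.45, other cells -0.75). *Gpc3*, *Hmga2* and *Mdk* were abundant in the other cells at E11.5, at 906, 737 and 1599 CPM, and the part of RNA from those cells in the difference was not tested. Among genes that hardly changed in the other cells, *Stab1* (-2.02) and *Ptgs1*, a cyclooxygenase (-1.96), were lower.

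Of the 7 ranked genes of the monocyte list, 2 (*Ccr2* and *Lgals3*) were at least 2 times higher at E16.5 than at E14.5 and 0 lower, where 2.35% of all ranked genes were higher. Of the 7, 1 reached the share of cells needed for ranking at E16.5 alone, which fixes its direction. *Klf2*, a transcription factor of quiescent white blood cells, read 42.4, 23.5 and 181 CPM, which is 2.51 (1.94 to 3.06) above E14.5. *Lyz2* was at 341, 349 and 1414 CPM, with a ratio of 1.99 (1.79 to 2.19), and was found in 13 of the 29 cells, of which 1 gave 24.5% of the counts. *Ccr2*, the receptor by which monocytes leave the blood, was at 27.3, 25.7 and 90.4 CPM and had a UMI in 9 of the 29. *Lgals3* read 33.3, 138 and 382 CPM. The monocyte list as a whole summed to 870, 2111 and 3166 CPM, and to 468, 833 and 996 in the other cells. Its most abundant gene at the later stages was *S100a4*, which was also higher in the other cells at E14.5 than at E11.5 (2.22). *Ly6c2*, the marker of classical monocytes, was at 7.58, 8.56 and 23.3 CPM, the last from 8 counts in 3 cells. Lower than at E14.5 were *Mrc1*, *Ccl2* (-2.14), *Cxcl10* (-2.01), *Fcrls* (-1.96), *Traf1* (-1.91), *Cxcl16* (-1.84), *Tnf* (-1.64) and *Ccl4* (-1.63).

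**Figure D5:**
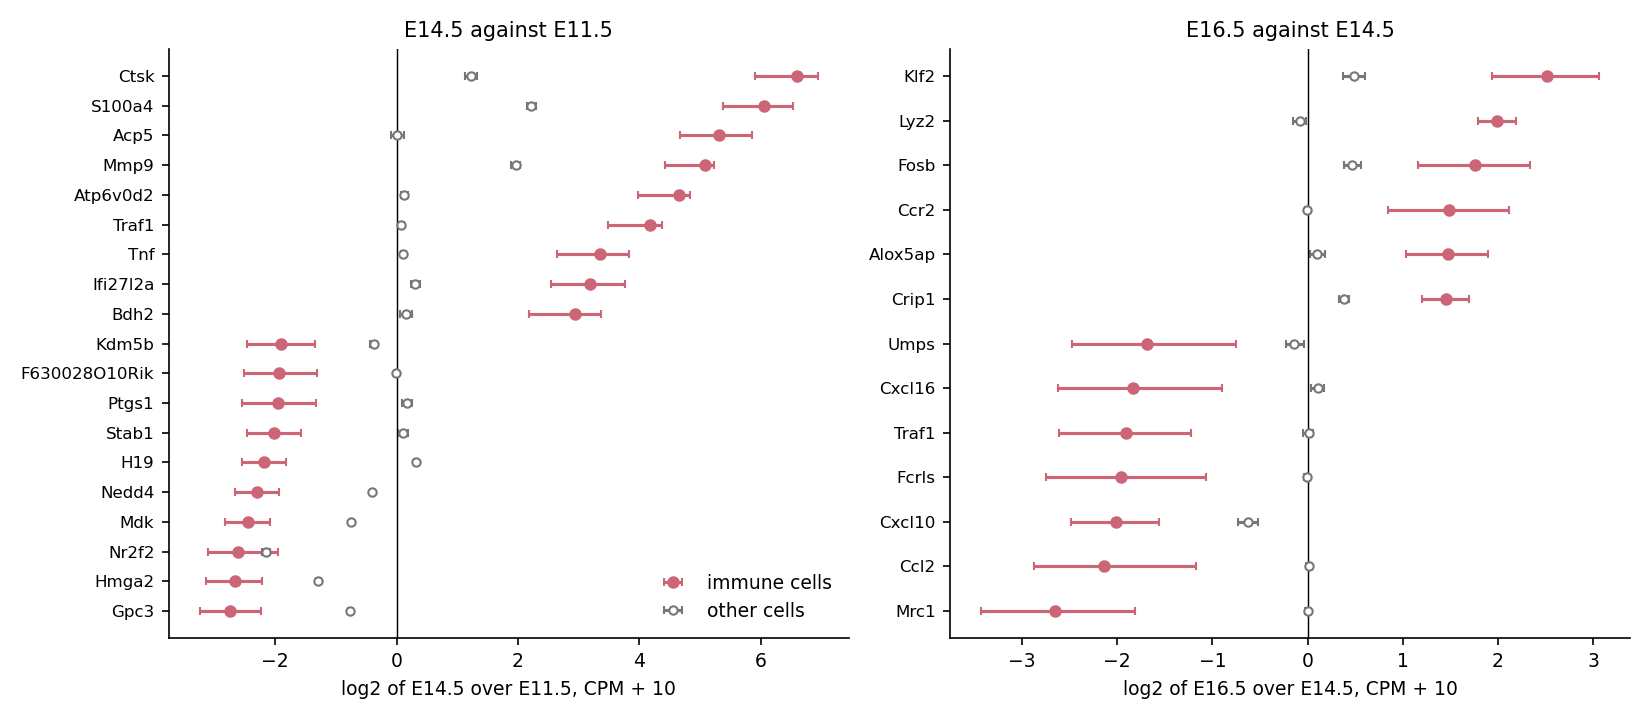
Log2 ratio between stages (CPM plus 10) in the immune cells (filled circles) and in the other cells (open circles), with bars for the 95% counting interval, for the genes with the largest ratios. At E14.5 the osteoclast genes, *S100a4*, *Traf1* and *Tnf* stand to the right; at E16.5 *Klf2* and *Lyz2* stand to the right and *Mrc1* and chemokine genes to the left.

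Cell cycle genes summed to 2810, 2294 and 1466 CPM in the immune cells against 3907, 2606 and 2292 in the others, and of 10 ranked genes 0 were at least 2 times higher at any stage, beside 8.55%, 10.0% and 7.16% of all ranked genes, and 1, 0 and 1 lower, beside 8.11%, 13.9% and 16.54%. *Top2a*, an enzyme that untangles DNA before division, was the most abundant at E11.5, at 618 CPM, and at E14.5, at 464. At least 3 of these genes had a UMI in 80.6%, 69.5% and 41.4% of the immune cells and in 85.2%, 47.4% and 43.4% of the others, whose cells held fewer UMIs.

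Some of the 219 cells carried genes of other blood lineages. At least 3 neutrophil granule genes were found in 6, 1 and 1 cells, at least 3 mast cell or basophil genes in 3, 5 and 4, lymphocyte genes in 0, 1 and 1, and megakaryocyte genes in 2, 0 and 0. Together these were 10 cells of E11.5 (16.1%), 7 of E14.5 (5.47%) and 4 of E16.5 (13.8%). Some met more than 1 of these limits. At E16.5 the cell with neutrophil genes (11717 UMIs) was also the one with lymphocyte genes, and it met the mast cell limit too. At E11.5 a cell of 12770 UMIs met both the neutrophil and the mast cell limit. The cell of 75780 UMIs was 1 of the 2 with megakaryocyte genes. The E11.5 cells with mast cell genes held at most 2 UMIs of *Cpa3* and no UMI of *Cma1*. Sums of the genes of other blood lineages rest on single cells. *S100a8*, a neutrophil protein gene, read 724 CPM at E14.5, where 1 cell with 3584 UMIs held 676 of 677 counts. At E16.5 the mast cell protease gene *Cma1* was at 1775 CPM in 3 cells and *Cpa3* at 1394 in 4. At E11.5 the granule protease gene *Prtn3* was spread wider, with 288 CPM in 21 cells, though 1 of them gave 41.6% of its counts. Genes of MHC class II and dendritic cells were sparse, at 19.7, 76 and 111 CPM, with at least 3 of them in 0, 2 and 1 cells, and the T cell gene *Cd3e* had no UMI in the immune cells.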

How the data were processed

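The deposited files hold whole-number UMI counts per gene and barcode, 1 matrix for each stage, which the authors produced from Chromium 3' libraries with Cell Ranger 4.0.0 and the mouse genome mm10. The 3 matrices hold 8708, 8192 and 5719 barcodes and 32285 genes; 13 to 17 barcodes were shared by any pair of stages and 0 of them belonged to an immune cell. Depth was 47513863, 27765839 and 40024102 UMIs in the cells that passed the filter.

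Cells needed at least 700 genes and at most 20% mitochondrial UMIs. Counts were summed over the immune cells and over the other cells of each stage and given as CPM with exact Poisson 95% intervals; shares have exact Clopper-Pearson intervals. Ratios add 10 CPM to each side, with intervals combined from both sides (MOVER). Genes needed a UMI in 10% of the cells of either group and 50 counts over both to be ranked, and a log2 ratio of 1 in size to be called; genes at 0 were set against 3 counts. With 1 sample for each stage no p-values were computed. No cell was removed as a doublet. Genes named are the rule genes, those with the largest and smallest ratios by these filters (leaving out genes of which 1 cell held over 25% of the counts), the most abundant genes of each list and list members that the text counts. The members and lists were chosen with earlier results of these data known. Promoter sequences and gene positions came from RefSeq and GENCODE tables of GRCm38. Alternatives changed the rule, the cell filter, the added CPM, the depth and the cells left out. The ratio code was tested on simulated data. All matrix columns belonged to a stage. Python 3.11.15 was used with numpy 2.4.6, scipy 1.17.1, pandas 2.3.3, scanpy 1.11.5 and matplotlib 3.10.9.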

Additional observations from a re-analysis of the deposited data

Results flagged for a closer look

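Barcodes that did not pass the filter on cells also held immune RNA. A UMI of at least 3 of the 9 rule genes was found in 10 of 2135 such barcodes at E11.5, in 8 of 2101 at E14.5 and in 4 of 1208 at E16.5, which is 0.468%, 0.381% and 0.331% of them. They were shallow, with a median of 886, 1147.5 and 1078.5 UMIs, and all but 1 at E14.5 failed for having too few genes. At least 3 genes of the macrophage list were present in 7, 5 and 0 of them, and 0 held 3 osteoclast genes. They are in no other value given here.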

How the results depend on the processing

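Each stage is 1 sample, so the values show these libraries and cannot separate stage from sample. No paired analysis was possible because the cells cannot be assigned to samples. Of 234 alternative values of shares and counts, 202 stayed within the interval of the share or within 1.5 times of the count. Of 3886 alternative values of list medians and genes, 3017 stayed within a fixed log2 distance of the median or within the gene's interval. Among those past 2 times, 8 changed sign. Causes were not tested.

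With at least 2 of the 9 rule genes, the E16.5 share was 1.04% and genes higher and lower at E16.5 than at E14.5 numbered 373 and 149. Without immune cells holding 3 mesenchyme or endothelium genes, the E11.5 share was 0.702% and 175 genes were lower at E14.5. Thinned to 2000 UMIs, 420 genes at E11.5 and 341 at E14.5 were higher than in the other cells, 62 were higher and 44 lower at E14.5 than at E11.5, and 22 higher and 40 lower at E16.5; cells with 3 resident genes were 33.9%, 11.48% and 3.7%, and with 3 osteoclast genes 0% and 30.3% at E11.5 and E14.5. With 1 CPM added, 1022 and 1027 genes were higher than in the other cells at E11.5 and E16.5, and 112 lower at E16.5 than at E14.5. With 50 CPM added, 248, 246 and 223 were higher than in the other cells, 100 higher and 64 lower at E14.5, and 37 higher and 19 lower at E16.5. With no filter but 10 counts, 365 were higher and 723 lower at E14.5, and 349 higher and 265 lower at E16.5. With at least 2 genes of the list, a limit chosen after seeing the data, the osteoclast share was 41.9% at E11.5 and 59.4% at E14.5.

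The ratio of *S100a8* over the other cells at E14.5 became -1.05 where cells needed 1000 genes and no more than 10% mitochondrial UMIs, -0.99 without the cell with most of its UMIs and also -0.99 without cells holding genes of other blood lineages. Without those cells *S100a8* was -0.0031 at E11.5, and *Cpa3* -0.027 at E14.5 and -0.011 at E16.5. After thinning, the median of the monocyte list was -2.54 at E11.5, where *Fn1*, *S100a6* and *Vcan* were the ones still ranked, and that of the microglia list -0.70 at E14.5. Over all alternatives run, the E14.5 over E11.5 ratios of *Ctsk* lay between 4.62 and 8.28 and of *Acp5* between 3.82 and 6.12, the osteoclast median between 2.16 and 6.04 and the resident median between -1.33 and -0.57. Those of E16.5 over E14.5 lay between 1.65 and 3.13 for *Klf2*, 0.99 and 2.59 for *Lyz2* and -3.26 and -1.63 for *Mrc1*, and between -0.66 and 1.01 for the osteoclast median.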

Other observations

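Interferon response genes summed to 685, 1322 and 1306 CPM in the immune cells of E11.5, E14.5 and E16.5, against 288, 670 and 629 in the other cells, and 3 of 7 ranked genes were at least 2 times higher at E14.5 than at E11.5, beside 4.53% of all ranked genes, though 2 of the 7 reached 10% of the cells at E14.5 alone, which fixes their direction. *Bst2*, which tethers virus particles to cells, read 74.3, 162 and 93.3 CPM, and *Ifitm2*, an inhibitor of virus entry, 179, 263 and 455. Type I response genes such as *Ifit1*, at 0, 21.4 and 2.92 CPM, were found in at most 6 cells of a stage.

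Lipid handling genes summed to 3041, 2714 and 2146 CPM in immune cells. *Lpl*, lipoprotein lipase, was at 186, 88.8 and 46.6 CPM, lower at each later stage, while *Fabp5*, which carries fatty acids in the cell, was at 384, 658 and 382. Genes shared with microglia, the macrophages of the brain, were present in part: *P2ry12*, a purine receptor, read 22.7, 7.49 and 2.92 CPM, while *Sall1*, a transcription factor of microglia, had no UMI in immune cells. *Tgfb1* was at 112, 39.6 and 64.1 CPM and *Il1b*, in 4, 16 and 5 cells, at 19.7, 78.1 and 108, of which 1 cell gave 61.5%, 35.6% and 40.5%.

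The Y chromosome genes *Ddx3y*, *Eif2s3y*, *Kdm5d* and *Uty* had 0 UMIs in all cells of E11.5, immune or not, and *Xist* was found in 88.7% of its immune cells at 746 CPM. At E14.5 and E16.5 *Ddx3y* was found in 12 and 5 immune cells, with *Xist* at 636 and 353 CPM. The labels list several samples at E11.5 and give no sex.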
